A study of Homo sapiens with 6 samples.

Results

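The genes described here encode the IL-6 cytokine family's ligands IL6, IL11 and LIF, its receptor chains IL6ST, IL6R, IL11RA, LIFR and OSMR, the transcription factor STAT3 and its feedback inhibitor SOCS3. They are 10 of the 17114 gene symbols in the tables, found by symbol. They were chosen by a reading of earlier results of these libraries, which included the comparison of XMU_MP_1 with Vehicle. Their own values are therefore given as a description, without p-values. The cells were 786-O, an established line of human clear cell renal carcinoma, in 2 groups of 3 libraries: one exposed to vehicle and one to XMU_MP_1. The compound XMU-MP-1 inhibits MST1 and MST2, the upstream kinases of the Hippo pathway, and the study's title concerns YAP, TEAD4 and NF-κB in this cancer. The labels call the exposure a transfection, without a dose or a time, and all libraries come from this single line, so no other genetic background is covered.

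Cytokines of the IL-6 family signal through a shared receptor chain, gp130, the product of IL6ST. Each ligand first binds its own receptor: IL-6 binds the IL6R chain and IL-11 the IL11RA chain, after which gp130 molecules pair, whereas LIF brings gp130 together with the LIFR chain and oncostatin M brings it together with the OSMR chain or the LIFR chain. The paired chains activate JAK kinases, which phosphorylate STAT3, and STAT3 enters the nucleus and switches on genes that include SOCS3, whose product then blocks the receptor complex. In renal carcinoma IL-6 is known as a cytokine that tumour cells themselves can secrete.

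Values are FPKM, fragments divided by transcript length and by the size of the library, so levels of different genes can be compared per length. Differences are XMU_MP_1 minus Vehicle on the log2(FPKM + 1) scale with the SE of a limma fit over the 11151 genes that averaged at least 1 FPKM across the libraries. That scale understates the differences of genes with low values, so ratios of mean FPKM are given too. Means are ± SD with n = 3 libraries. Of the 10 members 9 reached the mean of 1 FPKM. IL6R, with a mean of 1.34 FPKM over the 6 libraries, lies just above that limit and IL11RA, with 0.577, below it. Sequencing depth is unknown, the summed FPKM ran from 454889 to 527709, and nothing says whether the replicates came from separate cultures, so the spread between them may be technical. In bulk RNA of this kind fewer expressing cells and less RNA per cell cannot be told apart. Of 8 renal carcinoma markers 7 reached 1 FPKM in some library, PAX8 among them at 113.6 ± 1.89 FPKM in Vehicle, while CA9 stayed at or under 0.26 FPKM. These markers were not all steady between the groups. PAX8 rose to 127.3 ± 5.34 FPKM with XMU_MP_1, whereas LHX1, KRT18 and HAVCR1 fell, HAVCR1 from 43.6 ± 5.37 to 13.0 ± 1.59 FPKM. PAX2, EPAS1 and VIM did not pass a limma adjusted p of 0.05. The 3 leukocyte markers with a row summed to 2.5 to 2.97 FPKM in Vehicle and 1.1 to 1.54 with XMU_MP_1, mostly from CSF1R, and the 4 endothelial and 4 fibroblast markers with a row to at most 0.49 and 1.56 FPKM in any library.

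The ligand genes of the family parted. IL11 was about 4 times as abundant with XMU_MP_1, LIF was lower by nearly as large a factor, and IL6, the most abundant of them, differed by a few percent. STAT3, SOCS3, OSMR and LIFR had nearly the same level in both groups, and the low receptor transcripts IL6R and IL11RA differed in opposite directions.

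IL11 encodes a cytokine that acts on stromal, bone and epithelial cells. Its level was 25.03, 24.35 and 24.17 FPKM in Vehicle replicates 1 to 3 and 104.42, 101.87 and 104.71 FPKM in XMU_MP_1 replicates 1 to 3. Every XMU_MP_1 library was far above every Vehicle library, and the libraries of a group differed by little. The mean went from 24.5 ± 0.454 to 103.7 ± 1.56 FPKM, a ratio of 4.23 and a log2 difference of 2.04 ± 0.047 (SE). By that difference IL11 ranked 5 of 11151 tested genes, counted from the largest rise. IL11 lies on chromosome 19 (55364389 to 55370463, minus strand, GRCh38, GENCODE release 29) and overlaps no other annotated gene.

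LIF encodes leukaemia inhibitory factor, known for holding embryonic stem cells undifferentiated in mouse. Its level was 48.59, 50.68 and 47.86 FPKM in Vehicle and 13.55, 13.49 and 12.83 FPKM with XMU_MP_1. All 3 XMU_MP_1 libraries were low and all 3 Vehicle libraries high, without overlap. The mean went from 49.0 ± 1.46 to 13.3 ± 0.399 FPKM, so that Vehicle was 3.69 times XMU_MP_1, with a log2 difference of -1.81 ± 0.051. It ranked 45 counted from the largest fall. LIF lies on chromosome 22 (30240447 to 30246851, minus strand) and shares sequence with 2 annotated antisense transcripts.

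IL6 encodes interleukin-6, the cytokine of inflammation and the acute-phase response. Its level was 142.89, 136.86 and 147.72 FPKM in Vehicle and 156.63, 148.48 and 149.99 FPKM with XMU_MP_1. The groups did not overlap, but the lowest XMU_MP_1 library lay less than 1 FPKM above the highest Vehicle library. The means were 142.5 ± 5.44 and 151.7 ± 4.34 FPKM, a ratio of 1.06 and a log2 difference of 0.09 ± 0.053, and with each library scaled to the same total that difference was -0.006, so its sign depends on the scaling. IL6 lies on chromosome 7 (22725884 to 22732002, plus strand) and overlaps STEAP1B on the other strand, at 0.8 ± 0.0866 FPKM in Vehicle. The antisense gene AC073072.1, without a row, overlaps IL6 as well.

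**Figure D1:**
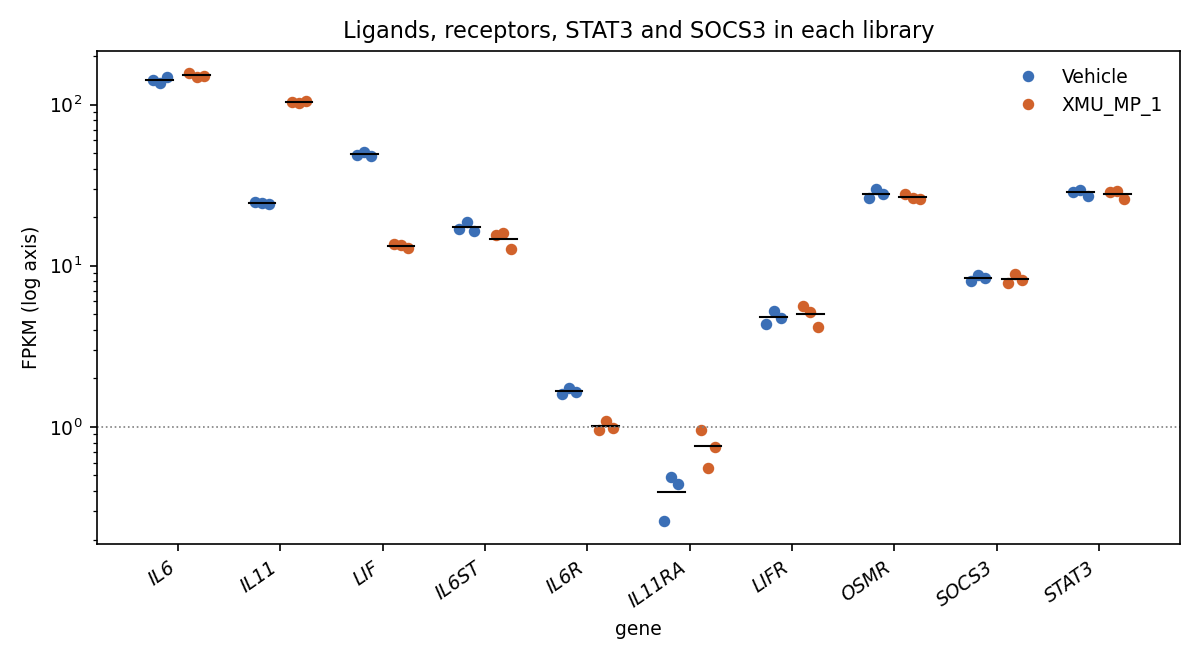
FPKM (log axis) of the 10 genes in each library, Vehicle blue and XMU_MP_1 orange, with a black line at each group's mean and a dotted line at 1 FPKM. IL11 goes from a mean of 24.5 to 103.7 FPKM and LIF from 49.0 to 13.3, whereas IL6, OSMR, SOCS3 and STAT3 have nearly the same mean in both groups.

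The opposite moves changed the order of the ligands. The ratio of IL11 to LIF was 0.515, 0.48 and 0.505 in the Vehicle libraries and 7.71, 7.55 and 8.16 in the XMU_MP_1 libraries. LIF was therefore the more abundant per length in each Vehicle library and IL11 in each XMU_MP_1 library. Together with CLCF1, which encodes cardiotrophin-like cytokine factor 1 and was the remaining family ligand gene above 1 FPKM, the ligand transcripts summed to 242.7 ± 4.06 FPKM in Vehicle and 288.8 ± 6.15 FPKM with XMU_MP_1. Of these sums IL11 made up 10.1 ± 0.275% in Vehicle and 35.9 ± 0.446% with XMU_MP_1. The share of LIF was 20.2 ± 0.935% and 4.6 ± 0.165%, and that of IL6 was 58.7 ± 1.27% and 52.5 ± 0.581%. IL6 remained the largest single part in all 6 libraries.

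**Figure D2:**
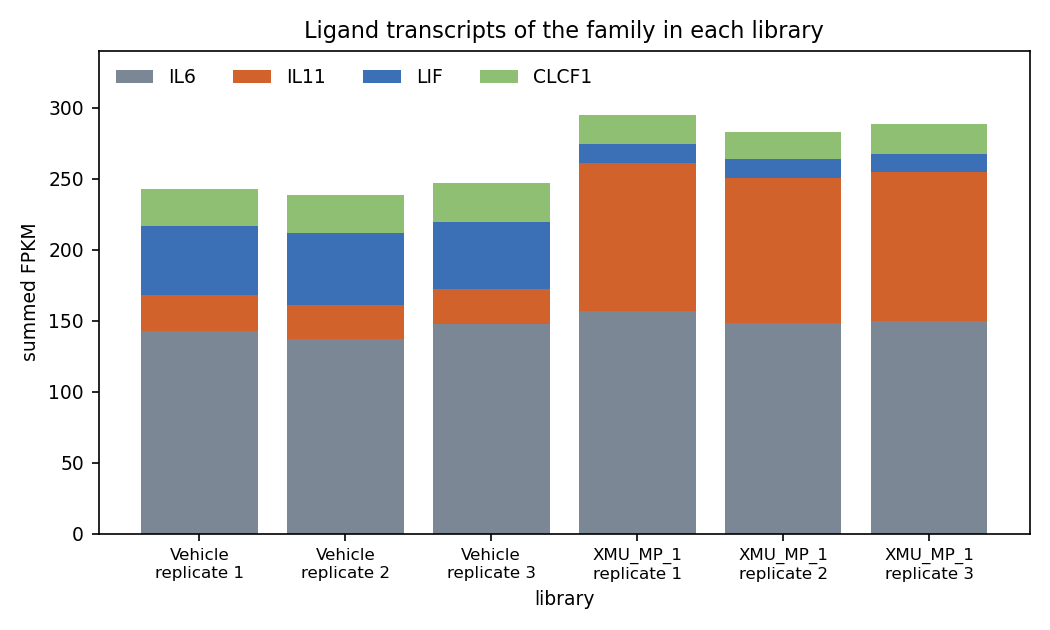
Stacked FPKM (linear axis from 0) of IL6, IL11, LIF and CLCF1 in each of the 6 libraries. The IL11 part is 9.79 to 10.3% of the bar in Vehicle and 35.4 to 36.3% with XMU_MP_1, the LIF part 19.4 to 21.2% and 4.44 to 4.77%, while the IL6 part keeps a similar height.

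The windows of 250 bases before the transcription start are shown for IL11, the member with the largest difference, and for IL6, the ligand gene with the smallest. They come from RefSeq's GRCh38.p14 promoter table, which matched 9 of the 10 members with 13 annotated starts. LIF had no entry. Each is written 5′ to 3′ on the gene's own strand and ends at the base before the start, with capitals at the motif matches found. IL11 lies at chr19:55370464-55370713 (minus strand) and IL6 at chr7:22726950-22727199 (plus strand).
IL11: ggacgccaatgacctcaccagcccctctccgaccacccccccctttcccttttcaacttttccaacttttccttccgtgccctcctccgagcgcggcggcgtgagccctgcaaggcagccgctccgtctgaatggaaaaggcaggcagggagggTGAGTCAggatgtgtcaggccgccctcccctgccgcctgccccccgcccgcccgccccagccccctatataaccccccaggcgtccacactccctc
IL6: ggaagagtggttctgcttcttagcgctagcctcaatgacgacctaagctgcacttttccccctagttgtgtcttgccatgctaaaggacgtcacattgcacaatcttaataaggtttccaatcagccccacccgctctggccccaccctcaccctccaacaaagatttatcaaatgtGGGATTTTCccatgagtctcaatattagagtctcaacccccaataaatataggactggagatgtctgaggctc
Motifs for 4 factor families were searched on both strands: TTCNNNGAA for STAT proteins, GGGNNTTTC for NF-κB, TGANTCA for AP-1 and GGAATG for TEAD. The IL11 window held a single match, to the AP-1 motif, 96 to 90 bases before the start, and 6.57% of all 35116 promoter windows of this length held that motif. The IL6 window held a single match, to the NF-κB motif, 73 to 65 bases before the start, against 4.16% of all windows. Neither match overlapped another motif. Of the other windows the SOCS3 window at its more upstream start and a LIFR window each held a TEAD match (11.9% of all windows), and 2 LIFR windows each held a STAT match (6.57%). These are matches of letters, with no measurement of binding.

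The receptor genes spanned a wide range of levels. OSMR, which encodes the oncostatin M receptor chain, was the most abundant at 26.44, 29.79 and 27.72 FPKM in Vehicle and 27.73, 26.48 and 25.77 FPKM with XMU_MP_1. The groups overlapped, with a ratio of means of 0.953 and a log2 difference of -0.07 ± 0.058. OSMR lies on chromosome 5 (38845858 to 38945596, plus strand), where its end overlaps RICTOR on the other strand, at 4.39 ± 0.388 and 5.15 ± 0.802 FPKM.

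IL6ST, the gp130 gene, was at 16.80, 18.81 and 16.38 FPKM in Vehicle and 15.59, 15.91 and 12.74 FPKM with XMU_MP_1. The groups did not overlap, and XMU_MP_1 replicate 3 lay well below the other libraries. The means were 17.3 ± 1.3 and 14.7 ± 1.75 FPKM, with a log2 difference of -0.22 ± 0.085. Leaving out Vehicle replicate 2 and XMU_MP_1 replicate 3, which stood apart from the other libraries of their groups in earlier results, left a difference of -0.071. Leaving out single libraries gave -0.277 to -0.128. IL6ST lies on chromosome 5 (55935095 to 55994993, minus strand). It overlaps 3 annotated genes on the other strand, an antisense gene, a processed pseudogene and a long non-coding RNA gene, all without a row.

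LIFR, the LIF receptor chain, was at 4.35, 5.27 and 4.75 FPKM in Vehicle and 5.60, 5.20 and 4.15 FPKM with XMU_MP_1. The highest and the lowest of the 6 values were both XMU_MP_1 libraries, so the groups overlapped throughout, with a log2 difference of 0.04 ± 0.099. Without the same pair of libraries that difference was 0.206, and over all alternatives that tested LIFR it ran from -0.041 to 0.206. The ratio of LIF to LIFR transcripts was 10.3 ± 0.798 in Vehicle and 2.7 ± 0.349 with XMU_MP_1. LIFR lies on chromosome 5 (38474963 to 38608354, minus strand), on the same arm as OSMR, and overlaps the antisense gene LIFR-AS1.

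IL6R, the IL-6 binding chain, was low, at 1.60, 1.75 and 1.64 FPKM in Vehicle and 0.96, 1.09 and 0.98 FPKM with XMU_MP_1. Each XMU_MP_1 library lay below each Vehicle library. The means were 1.66 ± 0.0777 and 1.01 ± 0.07 FPKM, so that Vehicle was 1.65 times XMU_MP_1, with a log2 difference of -0.41 ± 0.07 that was -0.669 with a pseudocount of 0.1. IL6R lies on chromosome 1 (154405193 to 154469450, plus strand) and overlaps the antisense gene IL6R-AS1.

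IL11RA, the IL-11 binding chain, had the lowest level of the family members, at 0.26, 0.49 and 0.44 FPKM in Vehicle and 0.96, 0.56 and 0.75 FPKM with XMU_MP_1. The groups did not overlap, but the gap between them was 0.56 against 0.49 FPKM. The means were 0.397 ± 0.121 and 0.757 ± 0.2 FPKM, a ratio of 1.91, and with no filter on low values the log2 difference was 0.328. The spread between libraries of a group is large beside these values. IL11RA lies on chromosome 9 (34650702 to 34661892, plus strand) and overlaps the protein-coding gene GALT on the same strand, which was at 5.51 ± 0.58 and 6.98 ± 0.322 FPKM. Also overlapping are the protein-coding genes AL162231.3, on the same strand and without a row, and CCL27 on the other strand. How reads in shared sequence were assigned is not given in the sources used here, nor whether counting used the strand. Values of IL11RA and of the other members that overlap annotated genes may therefore include fragments of their neighbours.

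**Figure D3:**
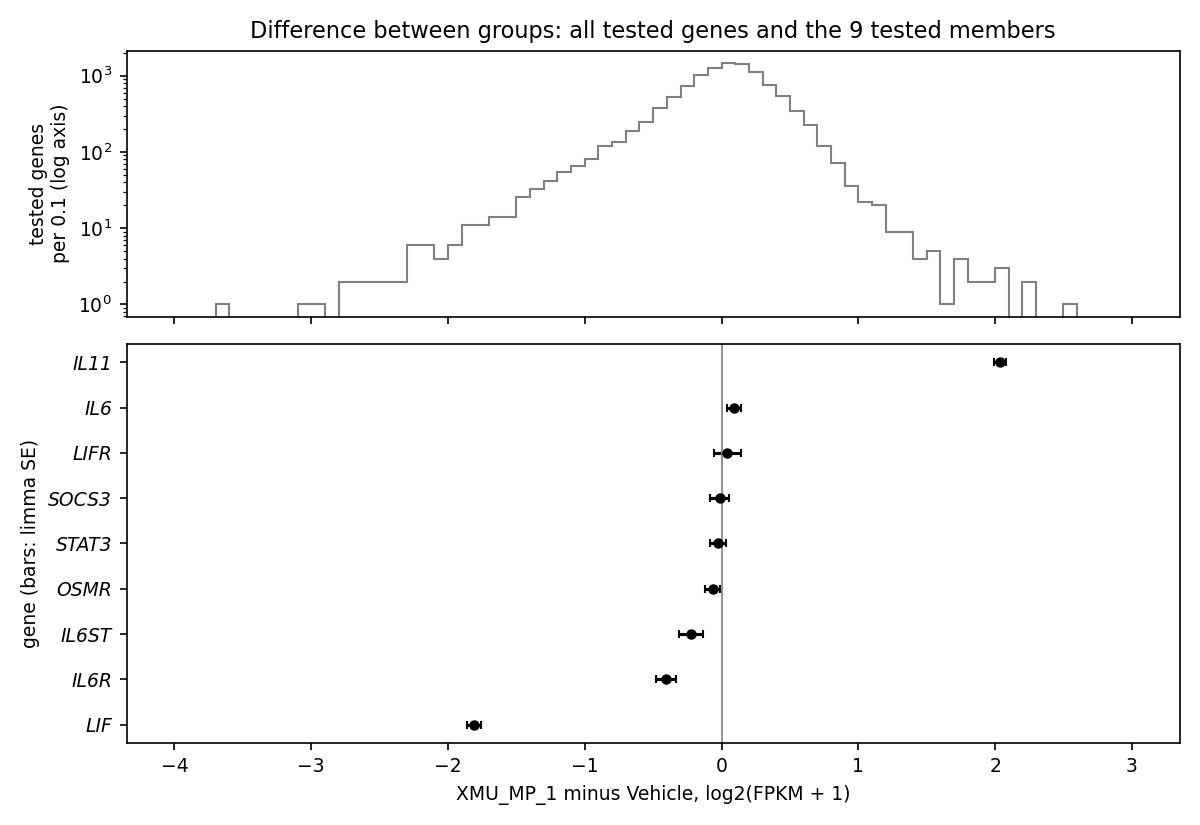
Upper panel, number of tested genes (log axis) per 0.1 of the log2(FPKM + 1) difference between XMU_MP_1 and Vehicle. Lower panel, the differences of the 9 tested members with the limma SE as bars, with IL11 at 2.04, LIF at -1.81 and the other 7 between -0.41 and 0.09.

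STAT3 and SOCS3, the transcription factor at the end of the pathway and its feedback target, showed little difference in transcript level. STAT3 was at 28.66, 29.67 and 27.12 FPKM in Vehicle and 28.77, 28.91 and 26.10 FPKM with XMU_MP_1. The groups overlapped, with means of 28.5 ± 1.28 and 27.9 ± 1.58 FPKM and a log2 difference of -0.03 ± 0.059 (95% interval -0.159 to 0.103). SOCS3 was at 8.01, 8.75 and 8.35 FPKM in Vehicle and 7.76, 8.92 and 8.19 FPKM with XMU_MP_1. Its lowest and its highest value were both in the XMU_MP_1 group, and its log2 difference was -0.01 ± 0.068 (95% interval -0.164 to 0.137). With libraries scaled to the same total these differences were -0.123 for STAT3 and -0.105 for SOCS3. Both genes lie on chromosome 17, STAT3 at 42313324 to 42388568 and SOCS3 at 78356778 to 78360077, on the minus strand, and overlap no other annotated gene. Phosphorylated STAT3 protein, the active form, was not measured by these libraries.

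In FPKM the order in Vehicle was IL6, LIF, STAT3, OSMR, IL11, IL6ST, SOCS3, LIFR, IL6R and IL11RA. STAT3 and OSMR, neighbours in that order, overlapped in range, and the ranges of all other neighbours were apart. With XMU_MP_1 IL11 moved to the second place and LIF to the sixth, so that the order was IL6, IL11, STAT3, OSMR, IL6ST, LIF, SOCS3, LIFR, IL6R and IL11RA. There the ranges overlapped for STAT3 and OSMR, for IL6ST and LIF, and for IL6R and IL11RA. In Vehicle IL11 stood at or above 80.6% of the genes in the tables and with XMU_MP_1 at or above 95.5%, while LIF went from 89.7% to 69.3%.

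In the fit over all genes 4 of the 9 tested members passed a Benjamini-Hochberg adjusted p of 0.05, IL11 as higher and LIF, IL6R and IL6ST as lower, and 5 did not. Of all 11151 tested genes 57.9% passed, 32% as higher and 25.9% as lower. The groups were apart, without overlap, for 5 of the 9 tested members, against 63.7% of all tested genes. The median log2 difference was -0.03 over the tested members and 0.04 over all tested genes. Because the members were picked with this comparison known, nothing is read from these counts. The counts also depend on the processing: IL6ST did not pass under 6 of 17 alternatives, among them leaving out Vehicle replicate 1, Vehicle replicate 2 or XMU_MP_1 replicate 3, LIFR passed as higher without Vehicle replicate 2 and XMU_MP_1 replicate 3, and IL11RA passed as higher with no filter on low values.

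Genes with the profile most like that of IL11 or LIF over the 6 libraries were found by the root mean square difference of log2(FPKM + 1) values centred on each gene's mean. For IL11 they were SERTAD1 (0.078), FAM222A (0.081), CHAC1, a glutathione-degrading enzyme gene (0.084), and the metallothionein gene MT2A (0.112). MT2A has near-identical copies, so its values are uncertain. For LIF they were SH3RF2 (0.026), DEPP1 (0.037), the urokinase gene PLAU (0.050) and PLEKHG4B (0.052). SH3RF2 was at 17.0 ± 0.615 FPKM in Vehicle and 4.16 ± 0.182 FPKM with XMU_MP_1. With 2 groups, the likeness mostly reflects a similar difference between them.

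The rest of the pathway was taken from 6 lists written from textbook knowledge, but with earlier results of these data known. Nothing is therefore read from their counts. The lists held 81 genes in all, of which 74 had a row and 56 were tested. With XMU_MP_1 16 of the 56 rose and 25 fell at a limma adjusted p below 0.05, and 15 did not pass. That is 28.6% higher and 44.6% lower, beside 32% and 25.9% of all tested genes, and the median log2 difference was -0.13 beside 0.04. With libraries scaled to the same total the counts over all tested genes turned from 3567 higher and 2886 lower to 2252 higher and 3448 lower, and those of the lists to 12 and 28.

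Among the other ligands and receptors of the family, CLCF1 and IL27RA were above the filter and both fell. CLCF1 was at 26.13, 26.81 and 27.06 FPKM in Vehicle and 20.36, 18.83 and 21.24 FPKM with XMU_MP_1, a log2 difference of -0.39 ± 0.057 (limma adjusted p = 1.76e-04). Its groups were well apart. IL27RA, the IL-27 receptor chain, went from 1.95 ± 0.0693 to 1.44 ± 0.00577 FPKM (limma adjusted p = 0.00493). The ligand genes OSM, CTF1, CNTF, IL27, EBI3 and IL31 and the receptor genes CNTFR and IL31RA were too low to be tested. OSM, the gene of oncostatin M, was at 0.16 to 0.40 FPKM in Vehicle and at 0 to 0.05 FPKM with XMU_MP_1, and CNTFR was listed at 0 in 5 of the 6 libraries.

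The tested JAK genes did not pass, whereas STAT2, STAT5A, STAT5B and STAT6 were among the STAT genes that did. JAK1, the main kinase on gp130, was at 74.8 ± 4.71 and 73.4 ± 5.68 FPKM, a log2 difference of -0.03 ± 0.068 (limma adjusted p = 0.762). Without Vehicle replicate 2 and XMU_MP_1 replicate 3 it was 0.089, past the threshold. JAK2 was at 2.83 ± 0.282 and 3.35 ± 0.39 FPKM (limma adjusted p = 0.0976), and passed under 4 of the 16 alternatives that tested it. TYK2 was at 23.6 ± 0.301 and 25.0 ± 0.788 FPKM (limma adjusted p = 0.203). JAK3 and STAT4 were too low to be tested.

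STAT5A and STAT6, which act downstream of growth hormone and haematopoietic cytokines and of IL-4 and IL-13, both fell. STAT5A was at 2.40, 3.02 and 2.61 FPKM in Vehicle and 0.88, 0.60 and 0.63 FPKM with XMU_MP_1, a log2 difference of -1.11 ± 0.091 (limma adjusted p = 2.55e-06). STAT6 was at 58.02, 58.77 and 54.34 FPKM in Vehicle and 30.78, 32.66 and 33.30 FPKM with XMU_MP_1, a log2 difference of -0.80 ± 0.054 (limma adjusted p = 6.42e-07). Both sets of libraries were clearly apart. STAT2, which acts in type I interferon signalling, rose from 4.76 ± 0.291 to 6.79 ± 0.495 FPKM (limma adjusted p = 4.59e-04). STAT5B fell from 9.11 ± 0.599 to 7.9 ± 0.556 FPKM (limma adjusted p = 0.0463), and that call was lost under 7 of 17 alternatives, among them leaving out any of Vehicle replicates 1 and 2 and XMU_MP_1 replicates 2 and 3.

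**Figure D4:**
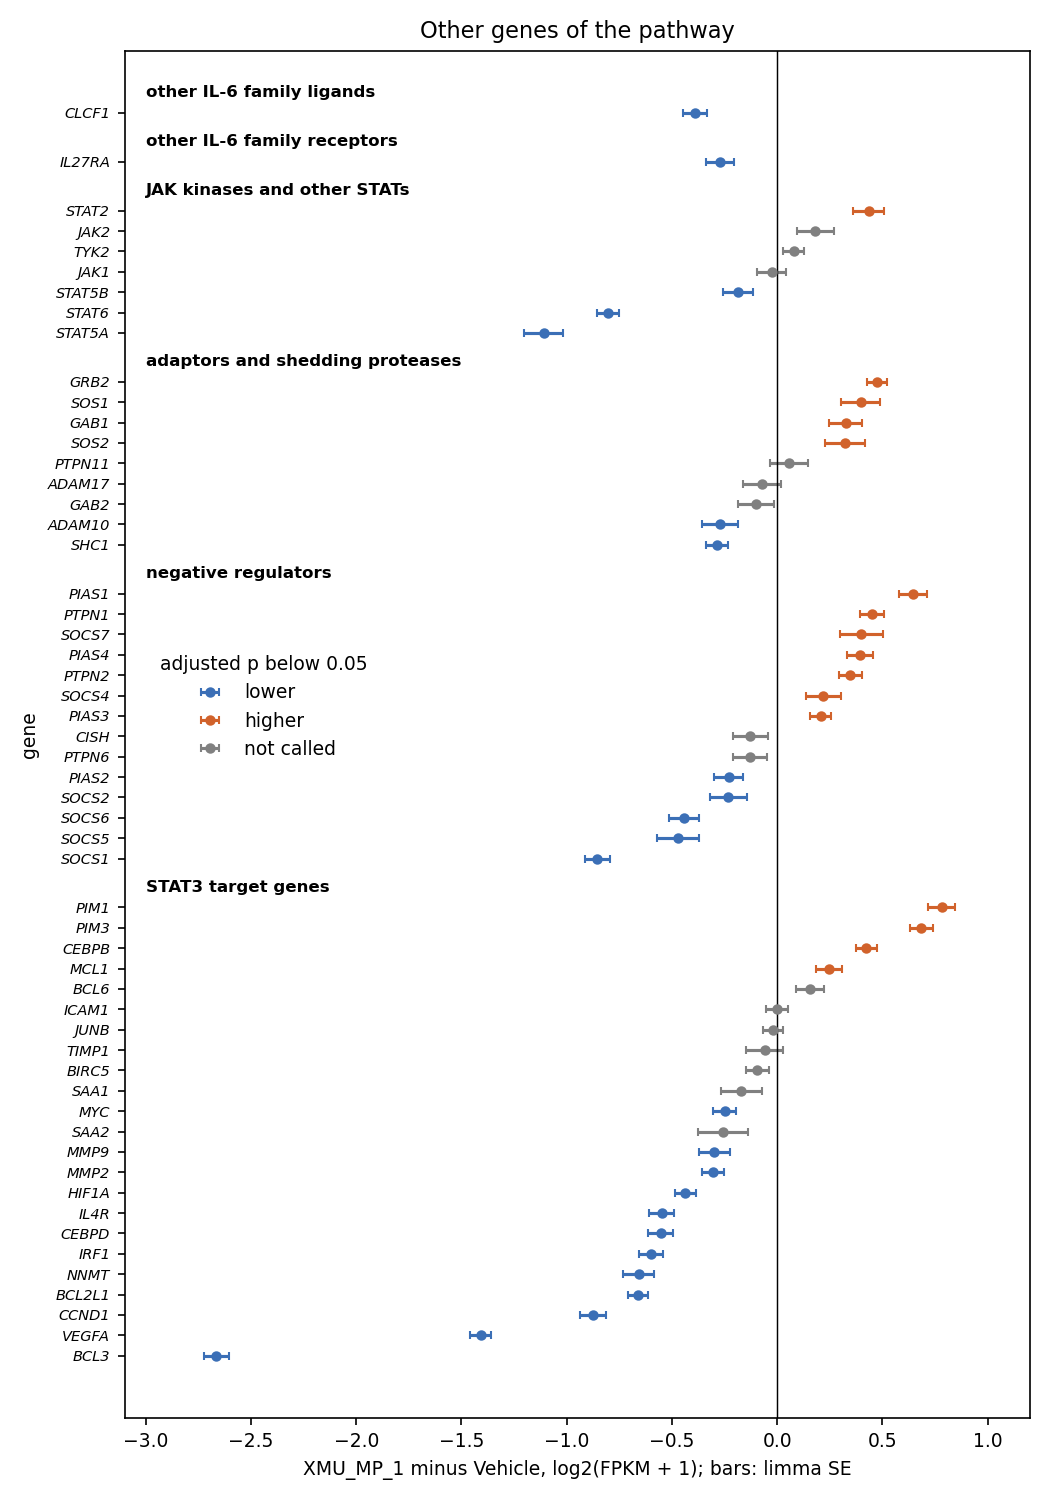
Difference between XMU_MP_1 and Vehicle on the log2(FPKM + 1) scale for tested genes of the 6 lists, with the limma SE as bars, orange for higher, blue for lower and grey for not past an adjusted p of 0.05. STAT2 is higher, STAT5A, STAT5B and STAT6 are lower, and BCL3 at -2.66 is the lowest of those shown.

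Adaptors and proteases around the receptor went both ways, with 4 of 9 higher and 2 lower. That is 44.4% and 22.2%, beside 32% and 25.9% of all tested genes. GRB2, the adaptor that links receptors to the RAS pathway, rose from 41.2 ± 1.32 to 57.6 ± 1.23 FPKM (log2 difference 0.47 ± 0.049, limma adjusted p = 1.55e-05). SOS1, the RAS exchange factor that GRB2 carries, rose from 6.52 ± 0.607 to 8.91 ± 1.1 FPKM, the docking protein gene GAB1 from 0.887 ± 0.0404 to 1.37 ± 0.195 FPKM, and SOS2 from 5.43 ± 0.454 to 7.05 ± 0.995 FPKM. The call of SOS2 was lost under 5 of 17 alternatives, among them leaving out Vehicle replicate 3 or XMU_MP_1 replicate 1 or 2. PTPN11, the gene of the phosphatase SHP2 that gp130 recruits, was at 25.4 ± 2.14 and 26.6 ± 3.26 FPKM (limma adjusted p = 0.604) and passed without Vehicle replicate 2 and XMU_MP_1 replicate 3, at 0.221. SHC1, another adaptor, fell from 75.9 ± 2.99 to 62.0 ± 0.646 FPKM. ADAM10, a protease that can shed the IL-6 receptor, fell from 35.3 ± 1.65 to 29.2 ± 3.83 FPKM. Of 17 alternatives 2 lost that call: leaving out Vehicle replicate 2, and setting no filter on low values. ADAM17, the other such protease, was at 10.9 ± 1.06 and 10.4 ± 1.19 FPKM (limma adjusted p = 0.519).

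Of 14 negative regulators 7 rose and 5 fell. That is 50% higher and 35.7% lower, beside 32% and 25.9% of all tested genes. The phosphatase genes PTPN1 and PTPN2, whose products act on JAKs and STATs, rose from 26.9 ± 1.43 to 37.1 ± 1.41 FPKM and from 24.4 ± 0.514 to 31.3 ± 1.88 FPKM. PIAS1 and PIAS4, from a family of SUMO ligases that restrain STATs, rose from 5.5 ± 0.225 to 9.17 ± 0.454 FPKM and from 12.3 ± 0.566 to 16.4 ± 0.961 FPKM, whereas PIAS2 fell from 11.8 ± 0.426 to 9.9 ± 0.771 FPKM. SOCS1, a direct inhibitor of JAKs, was at 14.56, 13.44 and 14.49 FPKM in Vehicle and 7.17, 7.34 and 7.64 FPKM with XMU_MP_1, a log2 difference of -0.85 ± 0.06 (limma adjusted p = 9.04e-07). All of its Vehicle values were well above all of its XMU_MP_1 values, unlike those of SOCS3. SOCS5 fell from 6.35 ± 0.685 to 4.31 ± 0.614 FPKM and SOCS6 from 5.06 ± 0.202 to 3.46 ± 0.269 FPKM. The calls of SOCS2 (lower) and SOCS4 (higher) were each lost under 8 alternatives, of 16 and 17 that tested them, and that of PIAS3 (higher) under 2.

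Of 37 known STAT3 targets 30 had a row and 23 were tested, of which 12 fell and 4 rose. That is 52.2% lower and 17.4% higher, beside 25.9% and 32% of all tested genes. The median log2 difference was -0.26, beside 0.04 over all tested genes. This list too was written with earlier results known, so nothing about STAT3 activity is read from its counts. Several of these genes also answer to other factors, NF-κB and the HIF proteins among them. BCL3, an atypical IκB gene, was at 33.10, 33.38 and 31.45 FPKM in Vehicle and 4.19, 4.58 and 4.16 FPKM with XMU_MP_1 (log2 difference -2.66 ± 0.06, limma adjusted p = 4.74e-10). VEGFA, the angiogenic factor gene, CCND1, which encodes cyclin D1, and BCL2L1, which encodes the survival protein BCL-XL, had log2 differences of -1.41 ± 0.05, -0.87 ± 0.063 and -0.66 ± 0.049. PIM1 and PIM3, which encode survival kinases, rose from 5.91 ± 0.416 to 10.9 ± 0.259 FPKM and from 25.1 ± 1.2 to 40.9 ± 0.93 FPKM. CEBPB, a transcription factor gene of the acute-phase response, rose from 42.1 ± 1.04 to 56.8 ± 1.96 FPKM, and MCL1, a survival gene, from 59.5 ± 2.33 to 70.8 ± 4.73 FPKM, a call lost under 2 of 17 alternatives. The acute-phase genes SAA1 and SAA2, near-identical copies whose values are uncertain, did not pass, at -0.17 ± 0.098 and -0.26 ± 0.12. Under the 17 alternatives SAA1 passed as lower in 5 and SAA2 in 3.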

How the data were processed

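Per the labels' protocols, total RNA of 786-O cells went into BGISEQ-500 libraries. The authors deposited FPKM per gene symbol, to 2 decimals, in 1 table per library, per the file headers. GRCh38 is the build, per the submitters' processing notes. Aligner, quantifier, annotation, filters and depth were not stated there. FPKM is relative to each library's total, so abundant genes shift the rest. Genes averaging at least 1 FPKM were tested with limma 3.58.1 (run in R 4.3.3 with statmod 1.5.0) on log2(FPKM + 1), without rescaling. The model held group alone, with moderation that was robust and followed the mean-variance trend. Tests were two-sided, with Benjamini-Hochberg adjustment over all 11151 genes and a threshold of 0.05. The fit was tried on simulated data with independent noise and far fewer changed genes than were called here. That trial does not cover replicates that share a culture. Positions are from GENCODE release 29. Tables were joined with pandas 2.3.3 (Python 3.11.15).

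The members and lists were chosen with earlier results of these data known. All 10 members are named. In each other list, apart from genes not reported here, all genes past the threshold in a direction are named if at most 4. Otherwise the 4 with the smallest adjusted p are named. JAK1, JAK2, TYK2 and PTPN11 are named as well, and for IL11 and LIF the 4 genes with the most similar profile. The counts also cover listed genes that are left unnamed and not reported here. Other genes were named after their values were seen. Alternatives changed the pseudocount, filter, scaling, moderation, replicate block and libraries used.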

Additional observations from a re-analysis of the deposited data

How the results depend on the processing

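Over 17 alternatives, the pathway lists gave 12 to 19 genes higher and 20 to 28 lower, and all tested genes 2252 to 4010 higher and 2044 to 3448 lower. The count over all genes that moved by more than 1.5 times was that of genes higher with libraries scaled to the same total, at 2252. Leaving out single libraries gave 3049 to 3573 genes higher and 2524 to 2874 lower, and 14 to 17 and 23 to 25 in the lists. With the replicate number as a block 3956 genes were higher and 3093 lower, and 17 and 26 in the lists. Same-numbered libraries' deviations from their group means correlated at -0.204, 0.392 and 0.244, and Vehicle replicate 1 correlated best with XMU_MP_1 replicate 3 (0.344), so the numbers were not taken as pairs. The block brought JAK2 (0.182) and SAA1 (-0.171) past the threshold, and no listed gene lost its call under it. Of 56 listed genes 41 kept their side of the threshold under every alternative that tested them. JAK1 reversed, from -0.026 to 0.089, without Vehicle replicate 2 and XMU_MP_1 replicate 3, and ran from -0.066 to 0.089 over the settings that leave libraries out; the cause was not tested. IL11 ranged from 1.963 to 2.076 and LIF from -1.94 to -1.761. IL6 ranged from -0.006 to 0.116, OSMR from -0.162 to 0.001, STAT3 from -0.123 to 0.047 and SOCS3 from -0.105 to 0.028, so their signs depend on the processing. Depth is unknown, which limits IL11RA and other genes under 1 FPKM.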
